A study of Triticum aestivum with 58 samples.

Results

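The genes described here are the expressed genes of a long run of consecutive gene identifiers on wheat chromosome 1B, from TraesCS1B02G000800 to TraesCS1B02G157000, whose transcripts were strongly lowered together in some libraries of the study and not in others. The run holds 1543 gene identifiers of the 120744 counted. Of these, 449 were taken as members because their median over all leaf libraries or over all root libraries reached 5 CPM, the counts of a gene scaled to the same total in every library. In leaf 277 members passed this limit, in root 395, and in both tissues 223, so that 54 passed in leaf only and 172 in root only. The other 1094 identifiers of the run lay under 5 CPM in both tissues, and 201 of them had no count in any library. The run was proposed from earlier results on these libraries. The members were chosen by their CPM, and the low libraries were selected on the CPM of the same members. The differences between low and other libraries are therefore a description and were not tested.

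The study sampled seedlings of bread wheat (Triticum aestivum) cultivars, released over several decades, 2 weeks after germination. They were grown in trays of peat moss, and no treatment of them is described. Leaf and root were collected separately, and RNA was sequenced as short single-end reads from oligo(dT)-primed cDNA. The tables hold 163 libraries, 82 of leaf and 81 of root, under 30 cultivar names. For 28 names both tissues were present and for 2 only leaf. No genotype was altered, so the groups differ by cultivar name and tissue alone. Between 8111979 and 11212584 reads were counted per library. Markers were taken from the study's gene list, PpD for leaf and TaMOR, EXPB1 and LRA1 for root. They were chosen with earlier results of these data known, so their levels are a description and not a check of the labels. A list of 3 leaf markers summed to 11.5 to 109 TPM, a scale corrected for gene length, in leaf and at most 2.16 TPM in root. A list of 9 root markers summed to 3.28 to 37.5 TPM in root and at most 0.298 TPM in leaf.

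Bread wheat carries 3 related genomes, A, B and D, and most genes exist as a set of homoeologous copies on the corresponding chromosomes, here 1A, 1B and 1D. The short arm of chromosome 1B is known for the gliadin and low-molecular-weight glutenin loci of the grain and for a nucleolus organizer, a block of ribosomal RNA genes. It is also the arm that in many bread wheat cultivars has been replaced by the short arm of rye chromosome 1R. Whether any of these seedlings carried such a replacement was not tested here. The identifiers state the chromosome and number the genes along it but give no gene name, and the tables used here pair only one member with a name, IAA11_1B. The other members are therefore given by identifier and without a role.

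For each library the median over the members of the log2 ratio of its CPM to the tissue median CPM was taken, with 0.1 CPM added to both, and a library was called low at -2 or less. In leaf 8 of 82 libraries were low, with medians between -2.997 and -2.49. In root 6 of 81 were low, with medians between -3.06 and -2.77. The nearest library outside the limit was at -0.70 in leaf, one of Dirk, and at -0.83 in root, one of Barani, so no library lay near -2. The summed expression of the members was 1438 to 2063 CPM in the low leaf libraries, against 5697 to 13056 CPM in the other leaf libraries. It was 2263 to 2557 CPM in the low root libraries, against 7050 to 17032 CPM in the other root libraries. The 2 sets did not overlap in either tissue. The ranges of depth overlapped, with 8695073 to 9725578 counted reads in the low leaf libraries, against 8111979 to 10335230 in the others, and 8421545 to 9390843 in the low root libraries, against 8577036 to 11212584 in the others.

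**Figure D1:**
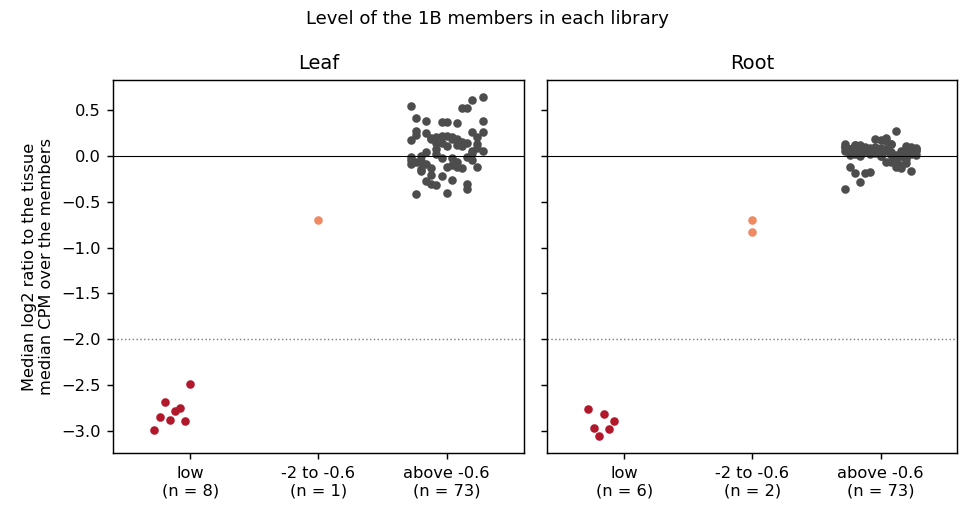
Median log2 ratio of the 1B members to their tissue median (vertical axis) in each of the 82 leaf and 81 root libraries, one point per library, grouped as low, between -2 and -0.6, and above -0.6, with the limit of -2 dotted. The 8 low leaf libraries sit between -2.997 and -2.49 and the 6 low root libraries between -3.06 and -2.77, apart from all others.

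The low libraries did not follow the cultivar names. The low leaf libraries were 2 of 3 of Hope, 2 of 3 of Rawal-87 and 1 of 3 each of Chakwal-86, Pak-13, Sonalika and Ujala-2016. The low root libraries were all 3 of Pasban-90 and 1 of 3 each of Barani, Chakwal-50 and NARC-2009. None of these 10 names had a low library in both tissues, though Hope had no root library and could not show one. Replicate libraries of one name thus disagreed with each other in 9 of the 10 names, and the libraries are compared below by their level on the segment, not by cultivar.

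Members were sorted by the log2 ratio of the median CPM of the low libraries to the median CPM of the others, with 0.1 CPM added to both. They are called lost at -3 or less, reduced down from -1, kept between -1 and 1, and higher at 1 or more. In leaf 123 of 277 members were lost, 121 reduced, 31 kept and 2 higher, with a median log2 ratio of -2.79. In root 194 of 395 were lost, 162 reduced, 39 kept and none higher, with a median of -2.97. Among all other genes with at least 5 CPM, 0.386% were lost, 1.03% reduced and 2.84% higher in leaf, with a median of 0.08 over 23855 genes. In root 0.666% of 32129 other genes were lost and 1.7% reduced, with a median of 0.03. These shares are a background only, because the members chose the libraries.

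The separation was also counted over single libraries. This too is a description, because the low libraries were chosen by the level of these members. All low leaf libraries lay below all other leaf libraries in 54.9% of the 277 members, which was seen in 0% of the other genes. All low root libraries lay below all other root libraries in 282 of 395 members, against 0.00934% of the other genes, which is 3 genes. The libraries with intermediate levels, described further on, are among the others here.

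The lowering ran along the segment up to the member TraesCS1B02G151700 and was not seen in the medians from TraesCS1B02G152500 on. The run was cut at TraesCS1B02G151800, which lay under 5 CPM in both tissues and is no member, and the part beyond starts at TraesCS1B02G152500. These limits were placed at the end seen in the values. The 4 members of each tissue between them are in neither part. In 10 consecutive stretches of 25 or 26 leaf members up to TraesCS1B02G151800, the median log2 ratio lay between -3.76 and -2.08 in every stretch. In 10 stretches of 37 root members it lay between -3.66 and -2.30. Beyond TraesCS1B02G152500 all 16 leaf members and all 21 root members were kept, with medians of 0.07 and 0.09. The genes with still higher numbers on 1B also stood at the background, with a median of 0.09 over 770 genes in leaf and 0.03 over 1042 genes in root.

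**Figure D2:**
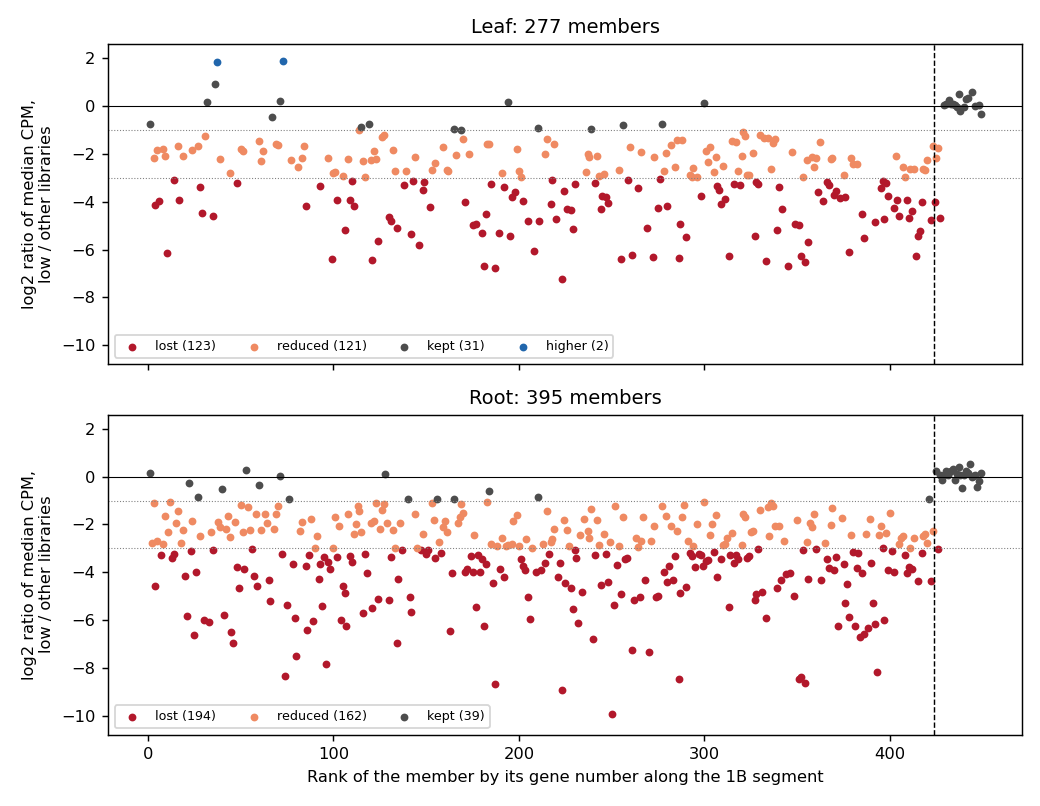
Log2 ratio of the median CPM in low to other libraries (vertical axis) for each member, in the order of its gene number (horizontal axis), in leaf with 277 members above and root with 395 members below, colored by class, with the limits of -1 and -3 dotted. Left of the dashed line at TraesCS1B02G151800 nearly all members lie below -1 in both tissues, and at the right end they return to 0.

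Lost members included some of the most abundant transcripts of the segment. In leaf, TraesCS1B02G115900 had 2.68, 7.64 and 12.2 CPM in the lowest, median and highest of the low libraries, against 63.4, 617 and 1332 CPM in the others. The same 3 values of TraesCS1B02G117400 were 1.88, 9.82 and 19.6 CPM in the low leaf libraries, against 30.6, 191 and 691 CPM in the other leaf libraries. In both genes every low library was below every other one. TraesCS1B02G075200 had 5.35, 27.0 and 66.5 CPM in the low leaf libraries, against 10.9, 236 and 546 CPM in the others. TraesCS1B02G088900 had 2.07, 4.89 and 10.6 CPM in the low leaf libraries, against 2.66, 158 and 600 CPM. These 2 genes overlapped between the sets, because single libraries outside the low set also had little of them.

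In root, TraesCS1B02G055200 had 8.68, 11.4 and 14.01 CPM in the low libraries, against 120, 332 and 1018 CPM in the others. TraesCS1B02G100100 had 0, 0.563 and 1.54 CPM in the low root libraries, against 101, 326 and 863 CPM, so that a transcript present in every other root library was close to absent in the low ones. TraesCS1B02G059100 had 13.3, 16.5 and 27.6 CPM in the low root libraries, against 70.6, 158 and 297 CPM. None of these 3 genes overlapped between the sets. TraesCS1B02G042200 had 16.5, 22.0 and 38.9 CPM in the low root libraries, against 4.33, 211 and 449 CPM in the others, and here at least 1 library outside the low set lay lower still.

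TraesCS1B02G135800 was among the 5 most abundant lost members of both tissues. In leaf it had 4.14, 6.68 and 12.1 CPM in the low libraries, against 1.02, 213 and 892 CPM in the others. In root it had 0.214, 0.596 and 0.712 CPM in the low libraries, against 0.195, 245 and 743 CPM. Its log2 ratio was -4.98 in leaf and -8.46 in root, and the ranges overlapped in both tissues.

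Total absence was uncommon. In root 8 members had 0 counts in all 6 low libraries, and in leaf none had 0 counts in all 8. The one with the largest level elsewhere, TraesCS1B02G044500, had 7.79, 18.3 and 25.8 CPM in the lowest, median and highest of the other root libraries. Against 3 counts in the shallowest low library, which is 0.356 CPM, its median was at least 51.3-fold lower in the low libraries. Over the 8 members this bound was between 16.7-fold and 51.3-fold, and it covers counting error only. TraesCS1B02G110800 and TraesCS1B02G027300 also had 0 counts in 22 and 21 of the 75 other root libraries, so their absence was not limited to the low ones. Among the lost members up to TraesCS1B02G151800, 34 of 193 in root and 21 of 121 in leaf had at most 3 counts in every low library. The rest had more than 3 counts in at least 1 low library. The median over lost members in the low libraries was 0.564 CPM in leaf and 0.711 CPM in root.

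Reduced members kept a larger remainder. In leaf, TraesCS1B02G129000 had 27.1, 49.5 and 81.8 CPM in the low libraries, against 85.2, 212 and 446 CPM in the others. TraesCS1B02G085200 had 22.7, 41.9 and 56.8 CPM in the low leaf libraries, against 58.1, 173 and 285 CPM. In these 2 genes the sets did not overlap, while the other leaf members of the most abundant 5, TraesCS1B02G068500, TraesCS1B02G076300 and TraesCS1B02G017800, overlapped, with log2 ratios of -1.82, -2.14 and -1.82.

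In root, TraesCS1B02G068500 had 52.4, 62.1 and 64.4 CPM in the low libraries, against 105, 292 and 635 CPM in the others. TraesCS1B02G120600 had 33.4, 44.8 and 47.2 CPM in the low root libraries, against 120, 219 and 351 CPM. TraesCS1B02G132700 had 61.6, 74.9 and 89.1 CPM in the low root libraries, against 111, 178 and 299 CPM. These 3 did not overlap. TraesCS1B02G024200 and TraesCS1B02G036900, with log2 ratios of -2.17 and -2.22, did overlap. Reduced members up to TraesCS1B02G151800 had medians of 4.03 CPM in the low libraries, against 17.2 CPM in the others, in leaf. In root these medians were 3.50 CPM in the low libraries, against 16.1 CPM in the others.

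Kept members inside the run were few, 15 of 257 in leaf and 15 of 370 in root. Among the most abundant was TraesCS1B02G097700, with 8.58, 27.0 and 38.5 CPM in the low leaf libraries, against 12.7, 51.8 and 150 CPM in the others. In root it had 35.4, 46.0 and 63.1 CPM in the low libraries, against 27.0, 82.99 and 492 CPM. TraesCS1B02G104600 in leaf and TraesCS1B02G085100 in root also lay near the limit, at -0.96 and -0.92. TraesCS1B02G090500 was kept by its ratio of -0.61 in root, but had 38.4 to 42.03 CPM in the low libraries, just under the 42.09 to 120 CPM of the others. Several kept members were thus lower in low libraries by less than the limit.

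Others stood near the level of the other libraries in at least 1 tissue. TraesCS1B02G154200, beyond the end of the lowered run, had 15.6, 30.5 and 41.3 CPM in the low leaf libraries, against 12.7, 21.6 and 39.4 CPM in the others. TraesCS1B02G041400 had 9.20, 24.4 and 77.3 CPM in the low leaf libraries, against 0.319, 20.8 and 132 CPM. The first member, TraesCS1B02G000800, was lower in leaf by less than the limit, at -0.76. It had 6.85, 10.5 and 13.7 CPM in the low leaf libraries, against 3.10, 17.8 and 89.9 CPM in the others. In root it had 10.1, 16.8 and 19.4 CPM in the low libraries, against 7.36, 15.1 and 69.4 CPM. These genes lie at the start of the segment, within the lowered run and past the end of that run. The last member, TraesCS1B02G157000, had 30.0, 121 and 315 CPM in the low leaf libraries, against 26.1, 152 and 475 CPM. In root it had 44.0, 54.1 and 71.6 CPM, against 29.8, 48.3 and 111 CPM. All of these ranges overlapped.

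The 2 higher members were both found in leaf. TraesCS1B02G042300 had 14.7, 26.9 and 51.3 CPM in the low libraries, against 0.109, 7.29 and 135 CPM in the others. TraesCS1B02G022400 had 3.54, 18.0 and 35.2 CPM in the low libraries, against 0, 4.85 and 72.4 CPM. Both varied widely among the other libraries and spanned the low ones, and 2 of 277 is a share of 0.722%, below the 2.84% of all other leaf genes.

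The classes are ranges of a continuous ratio. In leaf, the members next to the limit of lost were at -3.05 and -2.98 (TraesCS1B02G117500 and TraesCS1B02G136200), those next to the limit of kept at -1.01 and -0.99 (TraesCS1B02G058600 and TraesCS1B02G086200), and those next to the limit of higher at 0.93 and 1.87 (TraesCS1B02G022300 and TraesCS1B02G022400). In root, the first pair was at -3.004 and -2.998 (TraesCS1B02G146500 and TraesCS1B02G051600) and the second at -1.05 and -0.95 (TraesCS1B02G090400 and TraesCS1B02G082100). The highest ratio in root was 0.53, of TraesCS1B02G155100.

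Lost members were somewhat shorter genes than reduced ones in the median. Up to TraesCS1B02G151800, lost members had a median gene length of 1577 bp in leaf and 1629 bp in root, and reduced members 1943 bp in leaf and 1898 bp in root. Across members the log2 ratio was weakly related to length, with r = 0.18 and rho = 0.18 over 257 leaf members, and r = 0.16 and rho = 0.13 over 370 root members. With the level in the other libraries it had r = 0.01 and rho = 0.09 in leaf and r = -0.06 and rho = -0.0028 in root. These relations are across genes of the same libraries, and genes are not independent replicates.

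At the end of the run the low libraries fell into 2 kinds, seen after the values were examined. TraesCS1B02G152200 had 7.42 CPM in the low leaf library of Chakwal-86, 18.7 CPM in that of Pak-13 and 17.7 CPM in that of Sonalika, against 4.22, 15.8 and 49.1 CPM in the lowest, median and highest of the other leaf libraries. In the 5 low leaf libraries of Hope, Rawal-87 and Ujala-2016 it had 0.115 to 0.566 CPM. In root it had 69.0 CPM in the low library of Barani and 55.3, 56.9 and 66.6 CPM in those of Pasban-90, against 36.1, 53.5 and 76.5 CPM in the others. In the low root libraries of Chakwal-50 and NARC-2009 it had 1.10 and 0.964 CPM. So 7 low libraries had this gene within the range of the other libraries and 7 did not.

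The neighboring genes split the same low libraries in the same way. TraesCS1B02G152000 had 19.7 to 23.0 CPM in the root libraries of Barani and Pasban-90, and 2.09 and 2.68 CPM in those of Chakwal-50 and NARC-2009, against 0.204, 17.3 and 25.5 CPM in the others. TraesCS1B02G151900, a member in leaf, had 16.2 to 35.0 CPM in the leaf libraries of Chakwal-86, Pak-13 and Sonalika and 0.230 to 2.04 CPM in those of Hope, Rawal-87 and Ujala-2016, against 16.4, 27.2 and 74.7 CPM in the others. TraesCS1B02G152100, which lies between TraesCS1B02G152000 and TraesCS1B02G152200, was low in both kinds, with 2.14 to 3.07 CPM in the 6 low root libraries, against 9.25, 20.5 and 30.7 CPM in the others. From TraesCS1B02G152500 on, both kinds were within the range of the other libraries in the genes plotted, except in leaf for TraesCS1B02G153000, where 1 low library lay above it. The class of the genes at the border therefore depends on which kind is more frequent in a tissue, and TraesCS1B02G152200 was lost in leaf (-4.70), where 5 of 8 low libraries had it below the others, and kept in root (0.07), where 2 of 6 did.

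**Figure D3:**
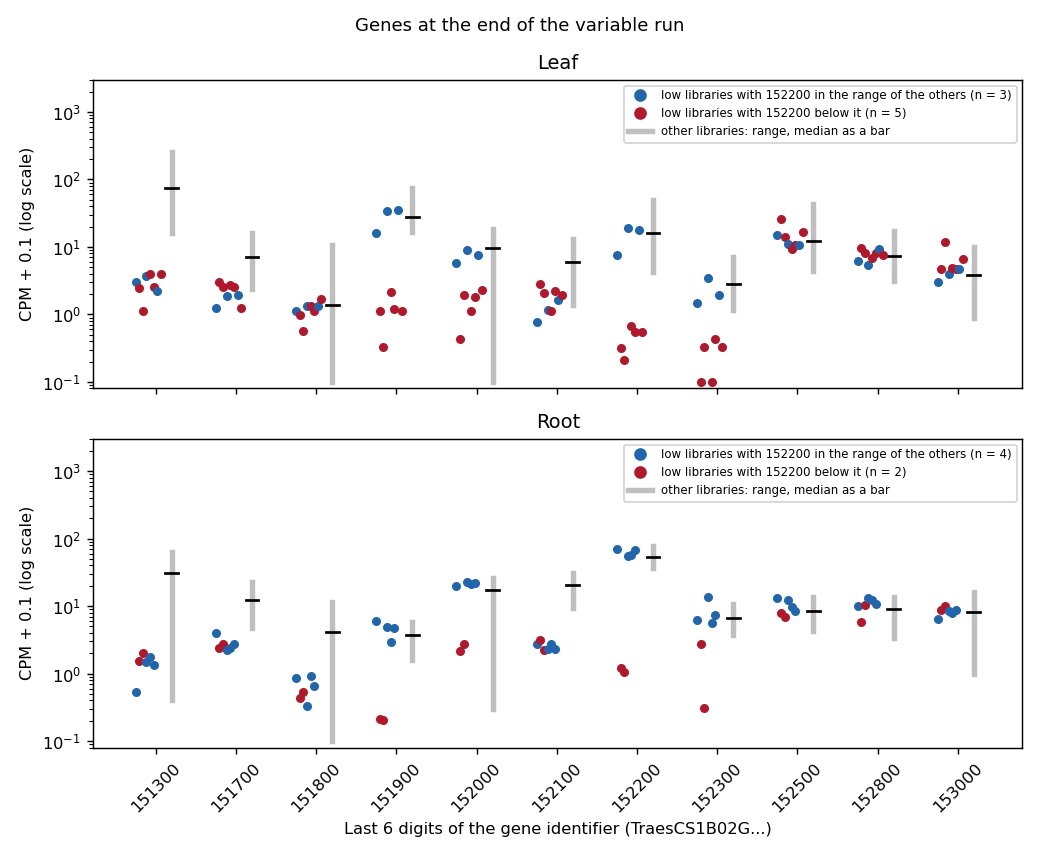
CPM plus 0.1 (log scale) of the genes at the end of the run, by the last digits of the identifier, in leaf above and root below, with one point per low library and a gray bar for the range of the other libraries. In TraesCS1B02G151900, TraesCS1B02G152000, TraesCS1B02G152200 and TraesCS1B02G152300 the blue points (7 low libraries with TraesCS1B02G152200 in the range of the others) lie in or next to the gray bars and the red points (the other 7 low libraries) lie under the blue ones, while in TraesCS1B02G152100 both colors are low.

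These 2 kinds could be set against genes that the choice of libraries did not use. Outside chromosome 1B, 164 genes could be read as silent (under 0.15 CPM) or expressed (over 2 CPM) with no more than 5% of leaf or of root libraries lying in between, and both states occurred in over 5% of each. The 7 low libraries without TraesCS1B02G152200 had the same state in 100% of these genes in all 21 pairs, and these libraries carry 5 cultivar names and come from both tissues. Of the 7 low libraries with it, the 6 of Barani, Pasban-90, Pak-13 and Sonalika were the same in 99.4% to 100% of genes over 15 pairs. Chakwal-86 was the same as these in 71.9% to 72.7%. Between libraries of the 2 kinds, Chakwal-86 left out, the share was 66.0% to 68.8%. No low library reached more than 83.01% with any of the 149 other libraries.

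The low libraries therefore showed 3 patterns on these genes under 10 cultivar names. Where a name had more than 1 low library (Pasban-90, Hope and Rawal-87), these were the same in 100% of genes. Between a low library and the libraries of its name that were not low, in either tissue, the share ran from 51.3% (Sonalika) to 80.5% (Barani root). None of these reached the 99.4% to 100% found between low libraries of one pattern. The low Hope libraries shared 64.2% and 63.1% with the Hope leaf library that was not low, the low Barani root library 78.9% and 80.5% with the other Barani root libraries, and the low Ujala-2016 leaf library 76.6% to 77.4% with the Ujala-2016 root libraries. By comparison, 316 pairs of other libraries of one name had a median of 69.0%, with a range of 47.1% to 100%. For 10710 pairs of other libraries of different names the median was 65.6%, with a range of 45.6% to 100%. Full identity between libraries of different names thus also occurred outside the low set. Because low libraries of one pattern share these states, every low set of libraries is fewer independent samples than its number of libraries. Over the members, log2 CPM correlated at r = 0.79 to 0.92 over the 28 pairs of low leaf libraries and at r = 0.90 to 0.95 over the 15 pairs of low root libraries.

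The 2 tissues gave similar ratios, although no cultivar name was low in both. Of the 204 members measured in both tissues up to TraesCS1B02G151800, 74 were lost in both, 77 reduced in both and 4 kept in both, so that 155, or 76.0%, had the same class. A further 15 were lost in leaf and reduced in root, and 24 were reduced in leaf and lost in root. None of the 204 was lost in one tissue and kept in the other. The ratios had r = 0.84 and rho = 0.82 across these genes, and the median difference in size was 0.50 on the log2 scale. The low libraries of both tissues share on/off patterns, as given above, so the tissues are not independent of each other here.

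**Figure D4:**
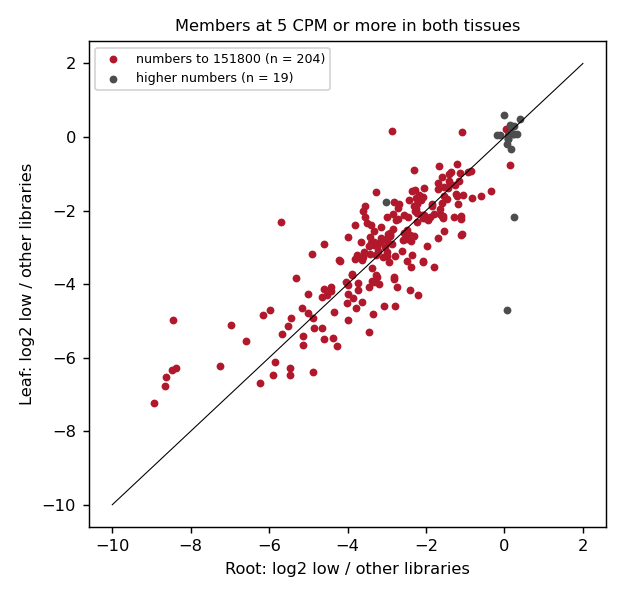
Log2 ratio of low to other libraries in leaf (vertical axis) and in root (horizontal axis) for the 223 members at 5 CPM or more in both tissues, with the line of equal values. Points up to TraesCS1B02G151800 (204) scatter about the line and lie above it at the lowest root ratios, and of the 19 with higher numbers most lie near 0 in both tissues.

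The genes of the same numbers on 1A and 1D were not lowered. In leaf the median log2 ratio was 0.19 over 332 genes of 1A and 0.20 over 343 genes of 1D, against 0.09 and 0.09 over the genes of higher numbers on the same chromosomes. In root it was 0.15 over 446 genes of 1A and 0.16 over 482 genes of 1D, against 0.06 and 0.02. On 1A 20.2% of these genes in leaf and 13.7% in root lay above 0.5, and on 1D 19.5% and 9.96%, where 11.4% of all genes outside the segment did in leaf and 4.97% in root. Equal numbers match the place along the chromosomes only roughly and do not mark pairs of homoeologues, which the tables used here do not give apart from IAA11. The IAA11 copies, described below, carry different numbers (TraesCS1B02G138100, TraesCS1A02G118400 and TraesCS1D02G119500).

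One set of homoeologues is named by the study, IAA11, which encodes an Aux/IAA protein, a family of nuclear repressors of auxin-responsive transcription that are degraded when auxin is perceived. IAA11_1B (TraesCS1B02G138100) had 1.37, 2.41 and 4.81 CPM in the low leaf libraries, against 3.71, 10.8 and 56.1 CPM in the others. In root it had 3.40, 4.63 and 5.35 CPM in the low libraries, against 8.24, 20.1 and 37.0 CPM. It was reduced in both tissues (-2.11 and -2.09), and the root sets did not overlap. IAA11_1A (TraesCS1A02G118400) had medians of 7.44 CPM in the low and 8.39 CPM in the other leaf libraries, and of 15.4 CPM in the low and 14.7 CPM in the other root libraries. IAA11_1D (TraesCS1D02G119500) had medians of 10.5 CPM in the low and 11.6 CPM in the other leaf libraries, and of 23.5 CPM in the low and 20.5 CPM in the other root libraries. Their low libraries lay within the range of the others in both tissues.

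On a per-length scale, the 1B copy made up 7.30% to 13.1% of the summed TPM of the 3 copies in the low leaf libraries, against 23.7% to 63.2% in the others. In root it made up 8.09% to 13.5% in the low libraries, against 22.4% to 46.3%. The sum itself was 13.2, 21.0 and 46.1 TPM in the low leaf libraries, against 9.28, 33.1 and 160 TPM, and 44.8, 47.3 and 57.7 TPM in the low root libraries, against 38.2, 62.5 and 103 TPM. The share separated the sets and the sum did not.

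**Figure D5:**
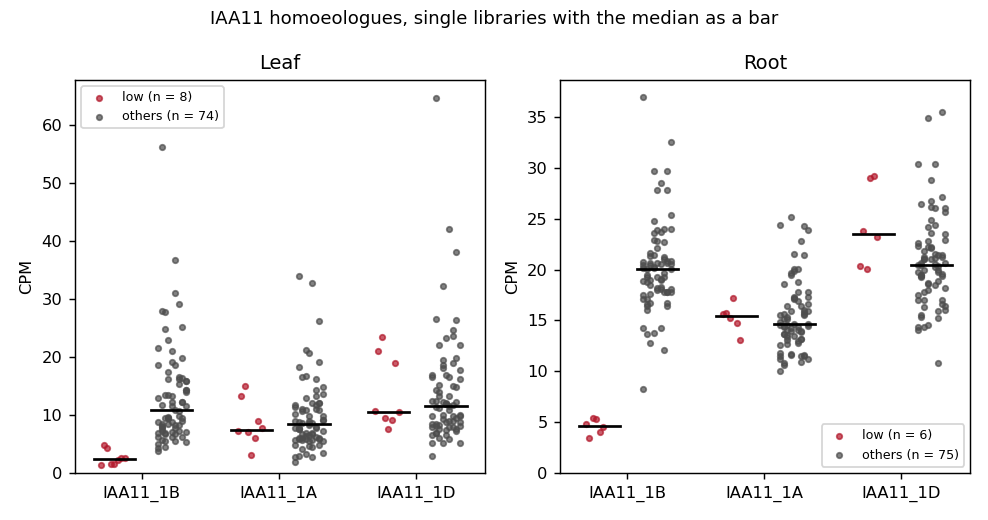
CPM (linear vertical axis) of IAA11_1B, IAA11_1A and IAA11_1D in every leaf and root library, with low libraries to the left of the others for each gene and medians as bars. In IAA11_1B the low libraries reach 4.81 CPM in leaf and 5.35 CPM in root and sit at the bottom, while in the 1A and 1D copies they lie among the others.

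A few libraries lay between the sets. In root, a library of Barani, at -0.83, and one of Parwaz-94, at -0.70, had medians of -0.91 and -0.77 over members up to TraesCS1B02G151800 and of 0.10 each beyond TraesCS1B02G152500. The central 80% of the members of the run lay between -1.50 and -0.36 in the Barani library and between -1.47 and -0.10 in that of Parwaz-94. This was a partial lowering over the run that was not seen beyond TraesCS1B02G152500. Where it ended between TraesCS1B02G151800 and TraesCS1B02G152500 was not examined. The remaining Barani root library, at -0.36, showed the partial lowering more weakly, with -0.43 in the run and 0.14 beyond. In leaf, the Dirk library at -0.70 had -0.75 in the run and -0.74 beyond, so its members were not lower than their neighbors on the chromosome.

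The members were also compared between leaf and root, which the choice of low libraries did not use, on counts summed per cultivar and tissue over the 28 names with both (edgeR quasi-likelihood test, Benjamini-Hochberg adjusted p under 0.1 over all genes). Of 448 members tested, 181 had the higher level in leaf and 197 in root, or 40.4% and 44.0%. Of all 62767 genes tested, 40.7% were higher in leaf and 47.2% in root, so the shares of the members lie near those of all genes. Members that passed 5 CPM in only 1 tissue had the higher median CPM there by that choice. All 54 that passed in leaf only were called higher in leaf. Of those tested that passed in root only, 130 were called higher in root, 12 were called higher in leaf and 29 were not called. Of the 223 that passed in both, 115 were higher in leaf, 67 were higher in root and 41 were not called. These are 51.6% and 30.0%, beside 54.6% and 30.3% of the 18524 other genes that passed in both tissues. The split depends on the scaling. On TPM, without the TMM normalization that edgeR uses to correct for library composition (limma on log2(TPM + 1)), 88 members were higher in leaf and 321 in root, with the median of all genes at -0.78 in place of -0.12 on the log2 scale. The same edgeR test on library totals without TMM, an alternative added after the data were seen, gave 95 higher in leaf and 316 in root, with the median of all genes at -1.05.

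Some members were found almost only in one tissue. Those named here reached 5 CPM in that tissue alone, so the choice of members fixed the direction of their median CPM and their values are a description. TraesCS1B02G126900 had 21.5, 61.9 and 116 CPM over the 28 cultivar sums of leaf, against 0, 0.0571 and 0.163 CPM in root. TraesCS1B02G050600 had 0.489, 8.57 and 15.8 CPM in leaf and 0 counts in all root libraries, at least 2106-fold higher in leaf against 3 counts over the root libraries. TraesCS1B02G004100 had 0.0741, 11.2 and 165 CPM in leaf and at most 0.0302 CPM in root. Each was higher in leaf in 28 of 28 cultivars. In low leaf libraries, these 3 genes were lost, with log2 ratios of -3.51, -6.41 and -6.15.

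On the root side, TraesCS1B02G024200 had 0, 0 and 0.502 CPM in leaf, against 39.4, 291 and 552 CPM in root. TraesCS1B02G042600 had 0 counts in all leaf libraries and 0.0772, 70.9 and 160 CPM in root, at least 15544-fold lower in leaf. TraesCS1B02G058100 had 0 counts in leaf and 4.61, 11.2 and 17.1 CPM in root, at least 2561-fold lower in leaf. None of the 28 cultivars had more of these in leaf. In low root libraries TraesCS1B02G042600 was lost (-8.33), and the other two were reduced (-2.17 and -1.23).

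IAA11_1B averaged 11.8 ± 5.35 CPM in leaf and 19.0 ± 4.82 CPM in root (SD, n = 28 each), and was higher in leaf in 3 of 28 cultivars. After TMM normalization its fitted log2 difference was 0.24 ± 0.14 SE (edgeR adjusted p = 0.0974, and 0.266 with the cultivar as a block), while on TPM it was -0.80 (limma adjusted p = 6.25e-07) and on library totals -0.69 (edgeR adjusted p = 1.91e-05). Its direction between the tissues depended on the scaling.

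Within leaf and within root, members were tested for differences between the cultivar names, over names with at least 2 libraries (edgeR quasi-likelihood F-test over all name coefficients). In leaf, 120 of 427 members tested differed between names, or 28.1%, where 50.5% of all 58753 genes did. In root, 428 of 437 members differed, or 97.9%, where 84.9% of all 64923 genes did. The segment was chosen because its genes vary together between these libraries, and all 3 root libraries of Pasban-90 are low by the same CPM, so these counts are not independent of the choice and are given as a description. In every other name with a low library, in leaf and in root, low and other libraries stand side by side. Without the low libraries, an alternative added after the data were seen, 218 of 426 leaf members were called, or 51.2%, where 51.2% of all genes were. In root, 414 of 437 were then called, or 94.7%, where 84.3% of all genes were. All genes here include those under 5 CPM, so their shares are not taken at the limit that the members passed.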

How the data were processed

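Deposited gene counts were used, which the authors made by cleaning reads with SOAPnuke, mapping them to the bread wheat reference with HISAT2 and counting with featureCounts. They are raw counts, in 58 tables of 120744 genes and 163 libraries. The deposited TPM values of 161 libraries equalled TPM computed from counts and lengths within 0.01, and 2 tables of Zincol-2016 TPM, which end early, were not used. Genome coordinates, gene names and sequences matching these identifiers were not used here.

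The members and lists were chosen with earlier results of these data known. CPM were computed on total counts. Low libraries and classes were described without a test. The identifiers named in the text were, per tissue, the 5 lost, reduced and kept members with the highest median in the other libraries, the higher members, the members next to each limit, the first and last, IAA11 and the 3 with the largest difference in each direction between leaf and root. Border genes and genes under 5 CPM were named after their values were seen.

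Leaf vs root and differences between names were tested with edgeR 4.0.16 in R 4.3.3 (TMM, filterByExpr, trended dispersion, quasi-likelihood F-test), with Benjamini-Hochberg adjustment over all genes at 0.1. The fits and classes were tested on simulated data. The alternatives were edgeR without TMM, DESeq2 1.42.0, limma 3.58.1 on log2(TPM + 1), no filter, a minimum of 10 counts in every sample, cultivar or replicate number as a block, other thresholds, pseudocounts and filters, TMM-scaled CPM, medians over cultivars, and leaving out libraries. Leaf and root sums of one cultivar carry the same cultivar name. Their deviations from the tissue means correlated at only 0.05 in the median over 28 pairs, over 0.1 in 8. The names of separate libraries do not state separate plants. The p-values between cultivar names therefore measure the spread between libraries, and those between leaf and root the spread between cultivar sums. Counting intervals and floors cover counting error only.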

Additional observations from a re-analysis of the deposited data

Results flagged for a closer look

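Genes of the segment that lay under 5 CPM in both tissues, and so were no members, were searched for the opposite pattern. In 4 of them every low library of a tissue lay above every other library of it, 3 in leaf and 2 in root of 1094 genes, or 0.274% and 0.183%. Of the 81741 other genes under 5 CPM in both tissues, 0.0122% did in each tissue. TraesCS1B02G133900 had 6.71, 9.07 and 16.9 CPM in the lowest, median and highest of the low leaf libraries, against 0, 0 and 1.28 CPM in the other leaf libraries, and 0 counts in the 72 root libraries that were neither low nor partly lowered. TraesCS1B02G066300 was seen in both tissues, with a median of 1.61 CPM in the low leaf libraries, against at most 0.336 CPM in the others, and a median of 3.80 CPM in the low root libraries, against at most 2.31 CPM. The root libraries that came nearest were the partly lowered ones, with 2.31 CPM in the Parwaz-94 library and 2.14 and 1.59 CPM in the 2 Barani libraries, where the other 72 reached at most 0.109 CPM. TraesCS1B02G114400 had a median of 6.09 CPM in the low root libraries, against 0.855 CPM and at most 3.17 CPM in the others. TraesCS1B02G078400 had a median of 1.15 CPM in the low leaf libraries, against at most 0.108 CPM in the others. No low library stood apart from its set in the median ratio or the summed CPM, and no member moved in opposite ways in the 2 tissues in all low libraries.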

How the results depend on the processing

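The number of low libraries was 8 in leaf and 6 in root at limits of -2 and -1, with TMM-scaled CPM, other filters or 1 CPM added, and fell to 0 in leaf and 1 in root at -3. The number of lost and reduced members depends on the limits. With 1 CPM added, 65 members were lost in leaf and 108 in root, 245 were reduced in root, and the median log2 ratios were -2.330 and -2.476. With lost set at -2 or less, 196 leaf members were lost and 48 reduced, and 70 root members reduced. With lost set at -4 or less, 73 leaf and 102 root members were lost and 254 root members reduced. With a filter of 1 CPM, 219 leaf genes were lost, 212 reduced, 50 kept and 6 higher, and 327 root genes were lost, 71 kept and 3 higher. With a filter of 10 CPM, 68 leaf members were lost, 20 kept and 1 higher, and 25 root members kept. A filter on the other libraries alone left 1 higher leaf member, and the low leaf libraries of Hope alone gave 4. Leaving out each replicate number in turn gave 119 to 132 lost leaf members and 193 to 199 lost root members.

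Between the tissues, a minimum of 10 counts in every sample, which leaves 291 members, gave 104 members higher in leaf and 130 higher in root, and limma on TPM gave 88 and 321, with IAA11_1B at -0.80. EdgeR without TMM gave 95 and 316, with IAA11_1B at -0.69. With the cultivar as a replicate block, 174 were higher in leaf and 186 in root, and IAA11_1B no longer passed the threshold (edgeR adjusted p = 0.266). Over the other settings with TMM or DESeq2 size factors its adjusted p was up to 0.808. With the replicate number as a block within a tissue, 125 leaf and 427 root members differed between names. Leaving out each replicate number in turn left 43 to 79 leaf members and 333 to 406 root members differing between names, with 2 libraries a name at most. Without the low libraries 218 leaf members differed. Apart from the scaling and the smaller numbers of genes and libraries, the cause of these changes was not tested.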
